A study of Homo sapiens with 8 samples.

Results

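Transcripts of the condensin and cohesin ring complexes were examined in multiple myeloma (MM) cells treated with a CDK7 inhibitor. The 10 genes were a fixed list of symbols. They were the condensin I genes SMC2, SMC4, NCAPD2, NCAPG and NCAPH and the cohesin genes SMC1A, SMC3, RAD21, STAG1 and STAG2. SMC1A matched 2 of the 63677 gene identifiers counted, of which the one with the higher summed count was used, and the other 9 symbols matched 1 each. All 10 passed the filter on low counts in every comparison. The cells were JJN3 and H929, both established MM lines. Each line was exposed for 24 h to THZ1 at 50 nM, a covalent inhibitor of the transcriptional kinase CDK7, or to the vehicle DMSO. RNA-seq was done on 2 libraries for each of the 4 combinations, 8 libraries in all. The labels give no transgene or further treatment, and nothing in them says that replicate libraries came from separate cultures, so the p-values measure the spread between these libraries, which may be technical.

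SMC complexes are rings that hold or fold DNA with the energy of ATP. In each ring a pair of SMC ATPases, SMC2 with SMC4 in condensin or SMC1A with SMC3 in cohesin, is closed by a kleisin subunit, NCAPH in condensin I and RAD21 in cohesin. HEAT-repeat subunits then bind the kleisin: NCAPD2 and NCAPG in condensin I, and either STAG1 or STAG2 in cohesin. Condensin compacts chromosomes for mitosis. Cohesin holds sister chromatids together from replication to anaphase and, with its loader NIPBL and the DNA-binding protein CTCF, shapes the chromatin loops that bring enhancers near promoters. STAG2 and RAD21 are recurrently mutated in acute myeloid leukemia.

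The total count per library was 17476443 to 19194371. Levels are given as CPM, counts brought to a library total of fixed size, scaled over all 8 libraries by the TMM method, so that they are relative to the RNA of each library. No value here measures RNA per cell, and a fall in all RNA after THZ1 could not be seen. In bulk RNA, fewer cells of a type and less RNA per cell cannot be told apart. All 8 plasma cell markers checked were above the floor of 3 counts in every library, the lowest at 232 counts. Of 8 markers of other blood cells, MPO had 0 counts in all libraries and LYZ at most 1. Their summed level was 5.90 and 7.14 CPM in JJN3 with DMSO, 7.41 and 4.96 CPM in JJN3 with THZ1, 1.39 and 1.82 CPM under the label H929 DMSO, and 35.4 and 35.6 CPM under the label H929 THZ1, where CD3E had 640 and 650 counts.

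The libraries of the 2 H929 labels went against a single source. The lambda light chain gene IGLC3 had 24879 and 22803 counts under H929 DMSO and 3 and 2 under H929 THZ1. FGFR3 had 45 and 285 counts under H929 DMSO and 14117 and 13411 under H929 THZ1. The 4 JJN3 libraries did not split in this way, with at most 1 count of IGLC3 and at most 2 of FGFR3. Differences between the H929 labels are therefore given as differences between libraries so labelled, in which treatment and cell source cannot be told apart, and the response to THZ1 is read from JJN3 alone.

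In JJN3, 2 condensin I transcripts fell and 2 cohesin transcripts rose after THZ1. NCAPH, the kleisin of condensin I, fell to 0.349 of its DMSO level and NCAPD2, a HEAT-repeat subunit of the same complex, to 0.630. RAD21, the kleisin of cohesin, rose 1.77-fold and STAG2, its HEAT-repeat partner, rose 1.65-fold. The other 6 genes, among them SMC4 and SMC2, did not pass the thresholds, which were an adjusted p under 0.05 and a log2 fold change beyond 0.5 by edgeR's quasi-likelihood test. Over all 13984 genes tested, 21.3% were called lower and 20.6% higher, so 2 of 10 in each direction was near the share among all genes. The median log2 fold change was 0.0052 over the 10 genes and -0.00036 over all genes tested.

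**Figure D1:**
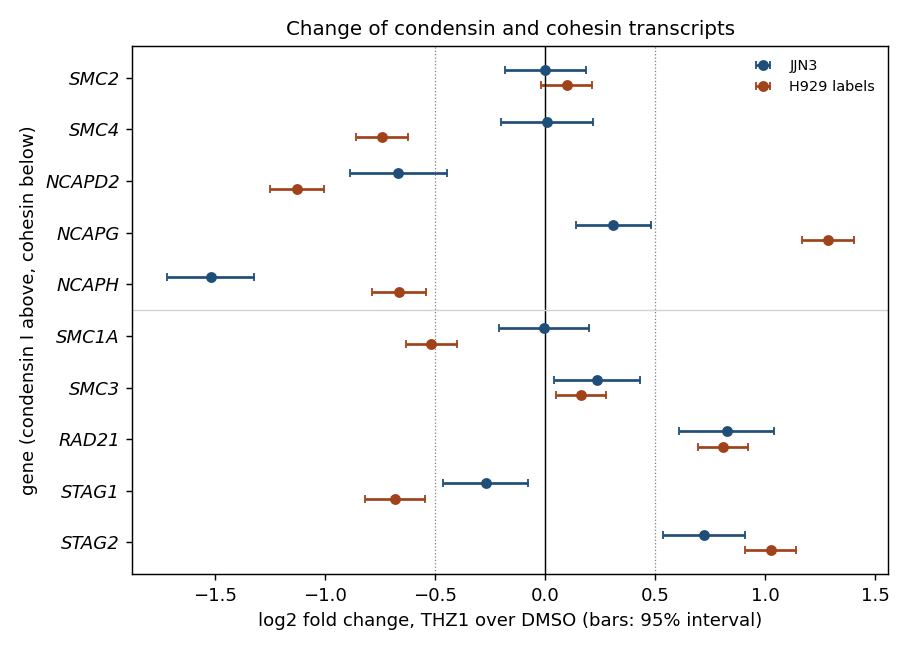
Log2 fold change of each of the 10 genes, THZ1 over DMSO (x axis), with its 95% interval as a bar, for JJN3 (blue) and for the libraries labelled H929 (brown); dotted lines mark the limit of 0.5. In JJN3, NCAPH at -1.52 and NCAPD2 at -0.67 lie left of the limit, RAD21 at 0.83 and STAG2 at 0.72 lie right of it, and the intervals of SMC2, SMC4 and SMC1A cross 0.

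The condensin I genes lie on separate chromosomes in the GRCh37 annotation (GENCODE): SMC2 at chr9:106856541-106903700, SMC4 at chr3:160117062-160152742, NCAPD2 at chr12:6602522-6641121, NCAPG at chr4:17812602-17846488 and NCAPH at chr2:97001504-97042829, all on the plus strand. They span 33.9 to 47.2 kb, with 18 to 32 exons in the canonical transcript. Promoter windows came from RefSeq (GRCh38.p14), each running from 250 bases before to 50 bases after a transcription start, and 9 of the 10 genes had an entry. The windows were searched on both strands for the CHR element TTTGAA and the CCAAT box, both common in promoters of genes used in mitosis, and for the E2F sites TTTCGCGC and TTTGGCGC. Of 35116 promoter windows of this length, 15.2% held the CHR letters, 34.6% CCAAT, 0.515% the first E2F site and 0.652% the second. The 250 bases before the start are shown for the condensin I genes that fell, NCAPH and NCAPD2, and for a pair of the same complex that did not, NCAPG and SMC4, so that their motifs can be compared. They are the plus strand of chr2:96335516-96335765, chr12:6493852-6494101, chr4:17810729-17810978 and chr3:160399400-160399649. Capitals mark the motif letters on either strand, with ATTGG the reverse of CCAAT and TTCAAA the reverse of TTTGAA.
NCAPH: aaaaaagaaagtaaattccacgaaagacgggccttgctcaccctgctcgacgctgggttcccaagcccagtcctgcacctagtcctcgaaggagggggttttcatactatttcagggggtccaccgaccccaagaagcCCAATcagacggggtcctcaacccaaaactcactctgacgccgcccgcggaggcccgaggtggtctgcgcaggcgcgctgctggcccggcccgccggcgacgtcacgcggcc
NCAPD2: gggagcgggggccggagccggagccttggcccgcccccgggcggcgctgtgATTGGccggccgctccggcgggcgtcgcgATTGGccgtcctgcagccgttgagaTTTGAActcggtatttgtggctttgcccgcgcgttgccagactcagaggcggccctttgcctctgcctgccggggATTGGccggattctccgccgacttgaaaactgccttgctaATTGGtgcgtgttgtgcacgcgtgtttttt
NCAPG: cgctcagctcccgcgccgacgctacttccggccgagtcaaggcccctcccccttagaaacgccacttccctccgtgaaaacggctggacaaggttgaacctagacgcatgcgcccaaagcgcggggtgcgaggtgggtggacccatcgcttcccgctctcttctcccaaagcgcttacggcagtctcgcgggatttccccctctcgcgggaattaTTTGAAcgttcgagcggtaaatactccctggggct
SMC4: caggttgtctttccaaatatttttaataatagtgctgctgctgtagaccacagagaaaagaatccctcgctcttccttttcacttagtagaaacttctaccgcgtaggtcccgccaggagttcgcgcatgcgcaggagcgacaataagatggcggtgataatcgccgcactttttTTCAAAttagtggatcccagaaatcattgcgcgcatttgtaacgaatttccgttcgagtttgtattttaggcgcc

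Both condensin I genes that fell held CCAAT letters in this window. NCAPH had 1 such match, at -112 to -108 from the start, and no CHR match. NCAPD2 had 4 CCAAT matches and a CHR match at -145 to -140. NCAPG had a CHR match at -35 to -30 and no CCAAT, and SMC4 had a CHR match at -75 to -70 in 1 of its 2 windows and no CCAAT. SMC2 also had 2 windows, with a CHR match across the start of one and no other motif. Among the cohesin genes, CCAAT letters were also found for STAG2, which rose, and for STAG1, which was not called. STAG2 held the only E2F match, at -51 to -44. SMC3 had a CHR match at -151 to -146, and SMC1A had no motif. These matches describe letters in the genes with an entry and were not tested against the changes.

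SMC4, an ATPase of condensin, had 462 and 428 CPM in JJN3 with DMSO and 449 and 400 CPM with THZ1. The ranges overlapped. Its log2 fold change was 0.0083 (SE 0.095, 95% interval -0.20 to 0.22, adjusted p = 0.947 by edgeR's quasi-likelihood test), so a change beyond 0.22 in either direction lay outside the interval. The sign of this value was not fixed: it was -0.096 when libraries were scaled by total counts.

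SMC2, the partner ATPase of SMC4, had 177 and 175 CPM with DMSO and 176 and 159 CPM with THZ1. One THZ1 library lay between the DMSO libraries and the other below them. The log2 fold change was 0.0020 (SE 0.084, 95% interval -0.18 to 0.19, edgeR adjusted p = 0.986), and it was -0.10 with total counts. The ratio of SMC4 to SMC2 reads was 2.61 and 2.44 with DMSO and 2.55 and 2.52 with THZ1.

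NCAPH had 86.4 and 90.7 CPM with DMSO and 27.6 and 31.0 CPM with THZ1. Both THZ1 libraries were far below both DMSO libraries, and this was the largest change among the 10 genes. NCAPH fell by 1.52 on the log2 scale (SE 0.090, edgeR adjusted p = 8.82e-07), with -1.62 to -1.45 over the other settings and left-out libraries tried. The kleisin joins the SMC heads and carries the HEAT-repeat subunits, so it is a part of every condensin I ring.

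NCAPD2 had 183 and 197 CPM with DMSO and 102 and 125 CPM with THZ1. The groups did not overlap, but the THZ1 libraries differed more from each other than the DMSO libraries did. NCAPD2 fell by 0.67 on the log2 scale (SE 0.10, edgeR adjusted p = 0.000196). With each library left out, its log2 fold change ran from -0.81 to -0.53, which is near the limit on size. MRPL51, on the other strand, overlaps an exon of NCAPD2. It had 2116 and 2429 reads with DMSO and 1341 and 1569 with THZ1, a log2 fold change of -0.45. The strand setting of the counts is not stated, so NCAPD2 and MRPL51 reads cannot be told apart where the genes overlap.

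NCAPG, the other HEAT-repeat subunit of condensin I, was not called. It had 187 and 186 CPM with DMSO and 220 and 218 CPM with THZ1, with a small spread in each group. Its log2 fold change of 0.31 (SE 0.077, 95% interval 0.14 to 0.48, edgeR adjusted p = 0.00525) passed the p limit and not the limit on size, and the adjusted p ran up to 0.102 with a library left out. The ratio of NCAPG to NCAPH reads was 2.16 and 2.05 with DMSO and 7.97 and 7.04 with THZ1, a 3.56-fold shift in a value that does not depend on how libraries are scaled. With 2 libraries against 2 an exact permutation test of such a ratio cannot give a two-sided p below 0.333, which is the value it gave here.

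**Figure D2:**
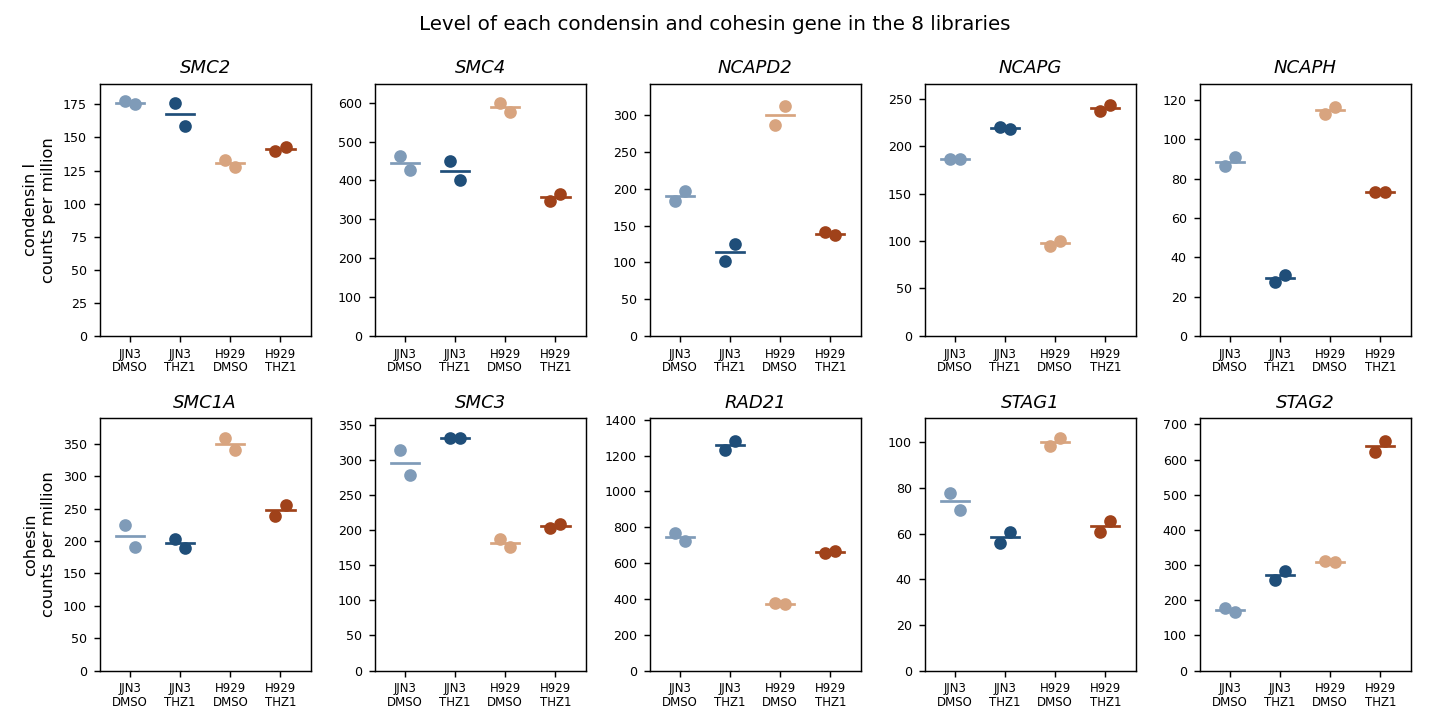
Level of each gene in CPM (y axis, starting at 0) in the 4 groups (x axis); points are libraries and lines are means of 2. The upper row holds the condensin I genes and the lower row the cohesin genes. NCAPH is lowest in JJN3 with THZ1, at 27.6 and 31.0 CPM, and RAD21 is highest there, at 1231 and 1282 CPM.

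SMC1A, an ATPase of cohesin, lies at chrX:53401070-53449677 on the minus strand. It had 224 and 191 CPM in JJN3 with DMSO and 203 and 189 CPM with THZ1. The ranges overlapped, and the log2 fold change was -0.0054 (SE 0.093, 95% interval -0.21 to 0.20, edgeR adjusted p = 0.965), with the sign turning under 3 of the 9 other settings. SMC3, its partner ATPase, at chr10:112327442-112365806 on the plus strand, had 314 and 278 CPM with DMSO and 331 and 330 CPM with THZ1. Both THZ1 libraries were above both DMSO libraries by a small margin. The log2 fold change of SMC3 was 0.24 (SE 0.088, 95% interval 0.042 to 0.43, edgeR adjusted p = 0.0379), under the limit on size, and the adjusted p ran up to 0.191 over the other settings and to 0.484 with a library left out. With SMC2 and SMC4 included, none of the 4 ATPase genes passed the thresholds.

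RAD21, the kleisin that separase cuts at anaphase, is on chromosome 8 (117858173 to 117887015, minus strand) and spans 28.8 kb. It had 770 and 725 CPM with DMSO and 1231 and 1282 CPM with THZ1. The groups were far apart, and RAD21 rose by 0.83 on the log2 scale (SE 0.098, edgeR adjusted p = 3.75e-05). The ratio of RAD21 to SMC3 reads went from 2.46 and 2.60 to 3.72 and 3.88. The RAD21 annotation overlaps an antisense gene, RAD21-AS1, with 20 and 22 reads in the DMSO libraries and 84 and 64 in the THZ1 libraries. RAD21-AS1 rose by 2.01 (SE 0.30, edgeR adjusted p = 0.000179). Whether the authors counted by strand is not stated, so where RAD21-AS1 and RAD21 overlap their reads cannot be told apart. RAD21 itself had 13902 to 23500 counts in these libraries.

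STAG1 and STAG2 are alternative subunits of the same position in cohesin. STAG2, at chrX:123094062-123556514 on the plus strand, had 179 and 167 CPM with DMSO and 259 and 283 CPM with THZ1. All THZ1 values were above all DMSO values, and STAG2 rose by 0.72 (SE 0.084, edgeR adjusted p = 3.25e-05). STAG1, at chr3:136055078-136471245 on the minus strand, had 77.7 and 70.4 CPM with DMSO and 55.9 and 60.7 CPM with THZ1. Its log2 fold change was -0.27 (SE 0.087, 95% interval -0.46 to -0.078, edgeR adjusted p = 0.0198), past the p limit and under the limit on size, and the adjusted p ran up to 0.0626 over the other settings and to 0.211 with a library left out. The ratio of STAG2 to STAG1 reads was 2.31 and 2.37 with DMSO and 4.64 and 4.66 with THZ1, a 1.99-fold shift. The exact permutation test of this ratio again gave its smallest two-sided p, 0.333. PCCB, on the other strand, overlaps an exon of STAG1. It had 1613 and 1763 reads with DMSO and 1848 and 2180 with THZ1. STAG1 and PCCB reads likewise cannot be told apart where the genes overlap.

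**Figure D3:**
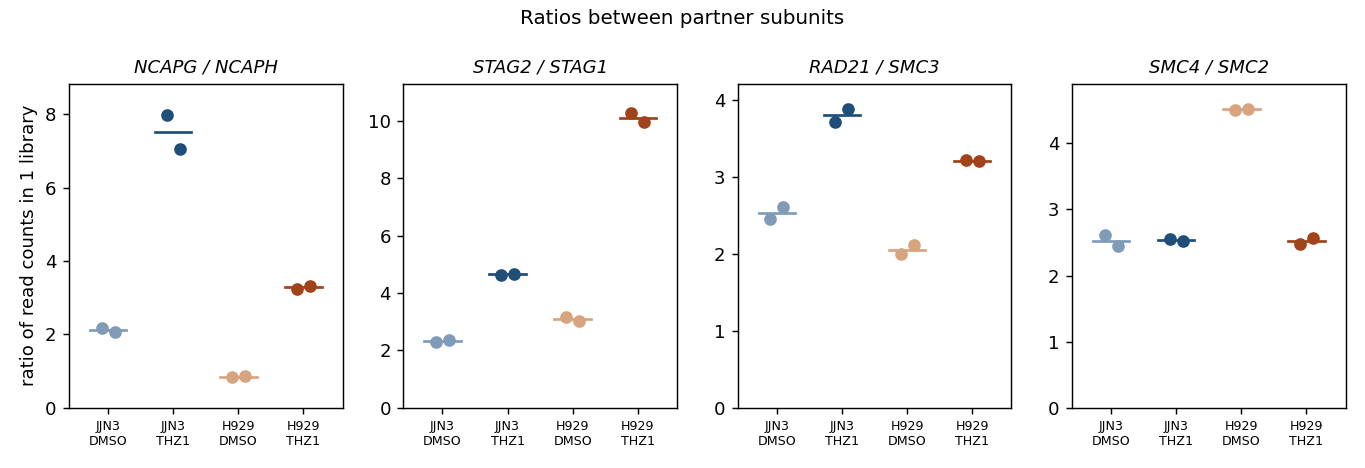
Ratio of the read counts of partner subunits within each library (y axis, starting at 0) in the 4 groups (x axis), points for libraries and lines for means of 2. NCAPG over NCAPH and STAG2 over STAG1 are higher with THZ1 under both line labels, and SMC4 over SMC2 is 2.44 to 2.61 in all 4 JJN3 libraries.

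Whether the changes went with the length of the gene was not tested. Spans are of the whole annotated gene and not of the canonical transcript, and that of STAG2 takes in all of another gene, SH2D1A. STAG1 and STAG2 span 416 and 462 kb, against 28.8 to 48.6 kb for the other 8 genes, and STAG2 was called higher while STAG1 was not called. Among those 8, RAD21 (28.8 kb), the shortest, rose. NCAPD2 (38.6 kb) and NCAPH (41.3 kb) fell. The rest, with SMC2 (47.2 kb) and SMC1A (48.6 kb) the longest, were not called. Besides the neighbours of SMC4, 27 counted genes overlap 1 of the 10. Of these 9 were tested in JJN3, 1 fell and 6 rose, beside 21.3% and 20.6% of all genes. Apart from LCORL, those that rose had low counts, from 7 to 237 in the JJN3 libraries. The 6 rises are therefore not read as a trait of overlapping genes. A processed pseudogene within STAG1, RP11-102M11.1, went from 7 reads in each DMSO library to 105 and 82 in the THZ1 libraries. Its log2 fold change was 3.91 (SE 0.35, edgeR adjusted p = 5.67e-06). It passed the filter only through the THZ1 libraries, where it was high, so its test is no support for a rise. It lies in an intron and on the strand of STAG1, which had 942 to 1476 counts in these libraries. Reads of a processed copy are uncertain, since they may come from its parent gene. LCORL, which overlaps the end of NCAPG on the other strand, rose by 0.60 (SE 0.11, edgeR adjusted p = 0.000641) and by 0.48 without THZ1 replicate 1, and UTP23, which overlaps the end of RAD21, fell by 0.62 (SE 0.079, edgeR adjusted p = 5.75e-05). The miRNA genes MIR15B and MIR16-2 lie in an intron of SMC4 and had 0 counts in all libraries, which allows up to 0.172 CPM.

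Related genes in JJN3 were also mixed. In condensin II, the sister complex with the same SMC2 and SMC4 but its own kleisin and HEAT-repeat subunits, 0 of 3 subunits fell and 1 rose, beside 21.3% and 20.6% of all genes. NCAPG2 rose by 0.54 (SE 0.079, edgeR adjusted p = 0.000156), from 193 and 195 to 272 and 265 CPM, and was at 0.44 with total counts. NCAPD3 had a log2 fold change of -0.46 (SE 0.078) and NCAPH2, the kleisin of condensin II, 0.18 (SE 0.087), and neither was called, but NCAPD3 was at -0.56 and called with total counts. The ratio of NCAPH to NCAPH2 reads went from 1.99 and 1.96 with DMSO to 0.588 and 0.624 with THZ1.

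Among 13 genes that load, release, acetylate, protect or cleave cohesin, 5 fell and 1 rose, beside 21.3% and 20.6% of all genes. PDS5A, which binds cohesin on chromatin, was not called at 0.49 (SE 0.083), but was called under 4 of the 9 other settings and without DMSO replicate 1 (0.52). NIPBL, the cohesin loader, had 220 and 207 CPM with DMSO and 516 and 472 CPM with THZ1, and rose by 1.29 (SE 0.090, edgeR adjusted p = 1.41e-06). MAU2, which binds NIPBL in the loader, had 49.8 and 49.8 CPM with DMSO and 28.8 and 34.5 CPM with THZ1, and fell by 0.58 (SE 0.10, edgeR adjusted p = 0.000546). Without one THZ1 library (replicate 1) its value was -0.46, which was under the limit on size. The loader pair thus moved in opposite directions, and their read ratio went from 4.42 and 4.15 to 17.9 and 13.7.

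ESPL1, the separase that cuts RAD21, had 45.4 and 46.96 CPM with DMSO and 18.5 and 19.3 CPM with THZ1, and fell by 1.21 (SE 0.097, edgeR adjusted p = 2.91e-06). ESCO2, an acetyltransferase of SMC3, fell by 0.92, and SGOL1, which protects cohesin at centromeres, fell by 0.68. CTCF fell by 0.51, at the limit, and was not called under 4 of the 9 other settings and without 2 of the 4 libraries in turn (DMSO replicate 1 and THZ1 replicate 1, at -0.48 and -0.47). The release factor WAPAL had a log2 fold change of 0.016 (SE 0.076) and CDCA5, or sororin, -0.031 (SE 0.083). ESCO1, the other acetyltransferase of SMC3, had 0.030 (SE 0.088). The median over the 13 genes was 0.015, near the median of all genes.

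In the SMC5/6 complex, the SMC ring best known from DNA repair, 4 of 6 genes fell and 0 rose, beside 21.3% and 20.6% of all genes. NSMCE4A fell by 0.96, NSMCE1 by 0.88, NSMCE2 by 0.86 and the ATPase SMC6 by 0.59. SMC5, the partner of SMC6, had a log2 fold change of 0.32 (SE 0.091, edgeR adjusted p = 0.00964). The median of the 6 was -0.72. Of the 4 cohesin genes used in meiosis, SMC1B and RAD21L1 did not pass the filter, and REC8 had 15 to 25 counts in JJN3. STAG3 was called higher on 10 and 4 reads in the DMSO libraries against 19 and 29 in the THZ1 libraries. It passed the filter only through the THZ1 libraries, so this call is no support for a rise. The call was lost without DMSO replicate 2. With each library left out the log2 fold change ran from 1.42 to 2.72.

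**Figure D4:**
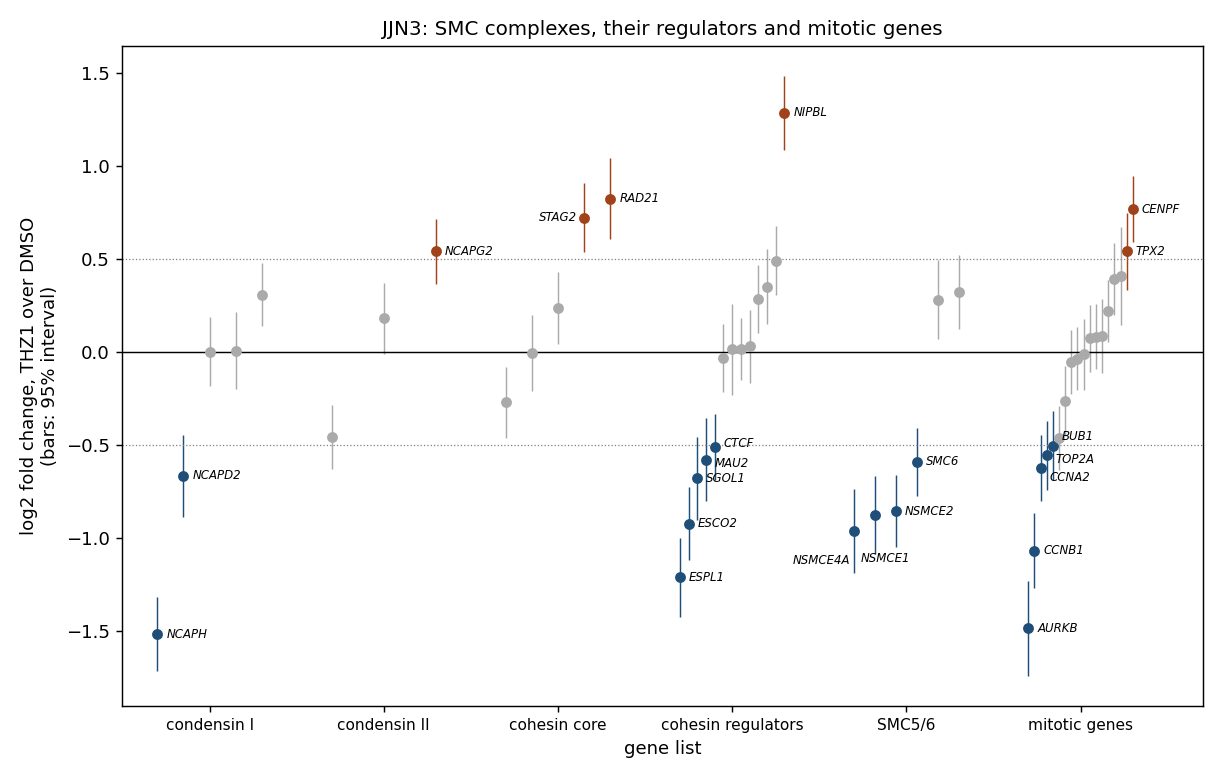
Log2 fold change in JJN3, THZ1 over DMSO (y axis), of each tested gene in 6 lists (x axis), with bars for 95% intervals. Genes called lower are blue and genes called higher brown, each with its name, and the rest are grey; dotted lines mark the limit of 0.5. The cohesin regulators and the mitotic genes hold calls in both directions, and of all genes plotted NCAPH at -1.52 is the lowest and NIPBL at 1.29 the highest.

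Since condensin and ESPL1 act in mitosis, 18 other genes of mitosis were examined. In JJN3, 5 of them fell and 2 rose, beside 21.3% and 20.6% of all genes, with a median log2 fold change of -0.024. AURKB, the kinase of the chromosomal passenger complex, fell by 1.49, and CCNB1, or cyclin B1, by 1.07. CCNA2 fell by 0.62, TOP2A by 0.56 and BUB1 by 0.503. BUB1 was thus just past the limit of 0.5, so the count of 5 rests in part on a call at the limit. CENPF rose by 0.77 and TPX2 by 0.54, while MKI67 had 0.41 (SE 0.12) and PLK1 0.075 (SE 0.081), neither called. Without THZ1 replicate 1, TPX2 was at 0.47 and not called, and without THZ1 replicate 2, MKI67 was at 0.58 and called. The part of cell cycle position in the changes of NCAPH and NCAPD2 was not tested.

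Between the libraries labelled H929 THZ1 and H929 DMSO, 5 of the 10 genes were lower and 3 higher, where 32.6% of 14863 genes tested were lower and 33.1% higher. These values hold the difference of cell source described above as well as any response. NCAPD2 differed by -1.13 on the log2 scale (SE 0.057), with 286 and 313 CPM under DMSO and 141 and 137 CPM under THZ1. SMC4 differed by -0.74 (SE 0.056), with 599 and 577 CPM under DMSO and 346 and 366 CPM under THZ1. STAG1 differed by -0.68 (SE 0.063), NCAPH by -0.66 (SE 0.057) and SMC1A by -0.52 (SE 0.055). NCAPG was higher by 1.29 (SE 0.055), with 94.6 and 100.2 CPM under DMSO and 237 and 243 CPM under THZ1. STAG2 was higher by 1.03 (SE 0.054) and RAD21 by 0.81 (SE 0.053), while SMC2 at 0.098 (SE 0.054) and SMC3 at 0.16 (SE 0.053) were not called. The largest edgeR adjusted p among the 8 calls was 2.94e-07, for SMC1A, whose size was near the limit and under it with 3 other scalings or tools, and also without DMSO replicate 1 (-0.49) or THZ1 replicate 1 (-0.46).

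NCAPH, NCAPD2, RAD21 and STAG2 had the same sign under both line labels, and all were called in both. The share of all genes called in the same direction in both was not counted. This overlap is therefore not read as a repeat of the response in JJN3. The sizes of the changes were compared by the interaction of line and treatment over all 8 libraries. In it, 32.3% of 16122 genes were called lower and 29.7% higher at an edgeR adjusted p under 0.05. For RAD21 the difference in log2 fold change, JJN3 minus the H929 labels, was 0.0065 (SE 0.10, 95% interval -0.21 to 0.22, adjusted p = 0.992). For SMC3 it was 0.062 (95% interval -0.16 to 0.28) and for SMC2 -0.11 (95% interval -0.32 to 0.11), and neither passed, although SMC2 did with total counts (-0.25, edgeR adjusted p = 0.0304) and without JJN3 THZ1 replicate 1 (-0.21, edgeR adjusted p = 0.0495). The other 7 genes differed, SMC4 among them at 0.74 (SE 0.11, edgeR adjusted p = 2.36e-05). SMC4 was thus lower between the H929 labels and not detectably changed in JJN3, and that contrast itself passed the test. NIPBL, the loader that rose in JJN3, was at 71.3 and 64.3 CPM under H929 DMSO and 78.3 and 87.7 CPM under H929 THZ1, and its interaction was 1.00 (SE 0.12, edgeR adjusted p = 1.47e-06).

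The levels of the 10 genes were also compared between the line labels without THZ1. Of the 10, 3 were lower and 3 higher in JJN3 DMSO than in H929 DMSO, where 33.0% of 14590 genes were lower and 32.6% higher. The count in each direction was thus near the share among all genes and is not read as a trait of the members. STAG2, at -0.87 on the log2 scale, SMC1A, at -0.78, and NCAPD2, at -0.69, were lower. RAD21 was higher by 0.97, NCAPG by 0.91 and SMC3 by 0.68. STAG1, at -0.46, was not called, but was at -0.52 and called without JJN3 DMSO replicate 1. With THZ1, 2 were lower and 2 higher in JJN3, beside 34.0% and 32.5% of 14981 genes. The values were -1.29 for NCAPH, -1.21 for STAG2, 0.71 for SMC3 and 0.95 for RAD21. RAD21 and SMC3 were higher and STAG2 lower in JJN3 in both comparisons. The share of all genes called in the same direction in both was not counted. The comparisons share no library, but the libraries of the 2 H929 labels went against a single source. The overlap is therefore not read as a repeat of 1 difference between lines.

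For SMC4 the order of the groups was H929 DMSO at 588 ± 15.9 CPM (SD, n = 2), JJN3 DMSO at 445 ± 24.4, JJN3 THZ1 at 424 ± 34.2 and H929 THZ1 at 356 ± 14.1. The pair of JJN3 groups in the middle overlapped. For RAD21 the order was JJN3 THZ1 at 1256 ± 36.4 CPM, JJN3 DMSO at 748 ± 32.4, H929 THZ1 at 662 ± 10.0 and H929 DMSO at 374 ± 1.70, with no overlap between neighbours. For STAG2 it was H929 THZ1 at 637 ± 21.3 CPM, H929 DMSO at 310 ± 1.31, JJN3 THZ1 at 271 ± 16.7 and JJN3 DMSO at 173 ± 8.65. For NCAPH it was H929 DMSO at 115 ± 2.61 CPM, JJN3 DMSO at 88.6 ± 3.02, H929 THZ1 at 73.2 ± 0.143 and JJN3 THZ1 at 29.3 ± 2.37.

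The ratios of read counts between genes given above were not corrected for length, so only their shifts between groups are read. Levels of different genes were ranked per kilobase of the canonical transcript. On that scale RAD21 was the highest of the 10 in JJN3 with DMSO, at 204 CPM per kb, followed by SMC4 at 87.0 and SMC3 at 53.6. NCAPH at 14.7 and STAG1 at 12.2 CPM per kb were the lowest. With THZ1, NCAPH was the lowest of the 10 in JJN3, at 4.86 CPM per kb. The order depends on the gene model: per kilobase of all annotated exons, SMC4 at 54.5 and RAD21 at 52.0 CPM per kb were first and second, and SMC3 fell from rank 3 to rank 7.

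Likeness to SMC4 over the 8 libraries was measured as the root mean square difference of log2 CPM after each gene was centred on its own mean. SMC4 differed by -0.74 between the H929 labels and by 0.0083 in JJN3. The likeness therefore includes the H929 difference, in which treatment and cell source cannot be told apart. STAG1 was the closest member, at 0.16, which was also the smallest distance over all pairs of members, and NCAPG (0.76), RAD21 (0.81) and STAG2 (0.83) were the farthest from SMC4. The farthest pair was the kleisins NCAPH and RAD21, at 1.33. Among 9673 genes, the 5 most like SMC4 were M6PR at 0.054, YTHDF2 at 0.061, RAB3IP at 0.066, METAP2 at 0.068 and C9orf78 at 0.070. M6PR, a receptor of lysosomal enzymes, had 1523 and 1490 counts in JJN3 with DMSO, 1358 and 1377 with THZ1, 1897 and 1816 under H929 DMSO and 1223 and 1183 under H929 THZ1. Of SMC4's neighbours on chromosome 3, in JJN3 KPNA4 had a log2 fold change of 0.085 (SE 0.081), TRIM59 0.33 (SE 0.11) and IFT80 0.38 (SE 0.12), none called. Between the H929 labels KPNA4, at -1.55, and TRIM59, at -0.84, were lower, while IFT80 was at -0.22 (SE 0.11) and not called.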

How the data were processed

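RNA-seq libraries of JJN3 and H929 (2 per line and treatment) were grouped by their titles. The authors aligned reads to hg19 with STAR 2.5.2a, counted them with featureCounts and deposited raw counts per Ensembl gene. They also deposited DESeq2 1.12.4 results (mean normalized signal, log2 fold change, its error, a test score, p-value and adjusted p-value), from which only gene symbols were used. The strand setting is not given in the sources used here.

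Counts were tested with edgeR 4.0.16 in R 4.3.3 (filterByExpr, TMM, quasi-likelihood test, Benjamini-Hochberg adjustment over all genes tested), per comparison, and as an interaction over 8 libraries. Calls needed an adjusted p under 0.05 and a log2 fold change beyond 0.5, or the adjusted p alone for the interaction. Alternatives were DESeq2 1.42.0, other scaling, filters and limits, all libraries in one fit, the replicate block and leaving out each library. The scripts were tested on simulated data. Replicate pairs differed by more than sampling noise (chi-square per degree of freedom 3.21 to 10.7). The members and gene lists were chosen with earlier results of these data known. The genes named were the members, genes of the lists and overlapping genes, and the 5 genes most like SMC4. The 95% intervals rest on the spread between libraries in the edgeR fits. The floor of 3 counts, 0.156 to 0.172 CPM, covers counting error only.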

Additional observations from a re-analysis of the deposited data

Results flagged for a closer look

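The log2 fold changes of 7 genes differed between JJN3 and the H929 labels by the interaction test (edgeR, adjusted over all genes tested). Of these members 3 were lower and 4 higher, where 32.3% of 16122 genes were lower and 29.7% higher. Such calls were thus common among all genes, and their number is not read as a trait of the members. The difference, JJN3 minus the H929 labels, was 0.74 for SMC4 (adjusted p = 2.36e-05), 0.45 for NCAPD2 (adjusted p = 0.0043), 0.50 for SMC1A (adjusted p = 0.00121) and 0.40 for STAG1 (adjusted p = 0.00493). It was -0.99 for NCAPG (adjusted p = 1.41e-07), -0.86 for NCAPH (adjusted p = 2.68e-06) and -0.31 for STAG2 (adjusted p = 0.013). Without JJN3 THZ1 replicate 2 the value for NCAPD2 was 0.28. STAG2 did not pass without JJN3 DMSO replicate 1 (adjusted p = 0.0558), nor STAG1 without H929 THZ1 replicate 1 (adjusted p = 0.0517). In NCAPD2, NCAPG, NCAPH, STAG1 and STAG2 the changes had the same sign under both line labels and differed in size. The share of all genes with the same sign under both was not counted, so this is not read as a shared response. The H929 labels also differ in MAF, with 18006 and 16310 counts under DMSO and 2729 and 2942 under THZ1, beside the light chain and FGFR3 reads. In these differences, line, treatment and cell source cannot be told apart.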

How the results depend on the processing

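With 2 libraries a group, precision rests on the spread shared across genes, and a library left out leaves an arm of 1, assumed to vary like the others. In JJN3, the calls of NCAPH, NCAPD2, RAD21 and STAG2 held under DESeq2, other scaling and filters, all 8 libraries in one fit and each library left out. With total counts the median of all genes was -0.10 in JJN3, -0.12 between the THZ1 groups and -0.18 in the interaction, against -0.00036, -0.027 and -0.039, and the values for that setting include this shift. The replicate numbers did not pair the libraries (correlation of deviations -0.012 to 0.012 between groups), and with a replicate block 2 members were lower and 2 higher in JJN3, 5 and 3 between the H929 labels, and no count of calls moved by over 1.5 times. The cause of the following moves was not tested unless the setting itself sets it.

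With a limit of 1 on the fold change, 1 member was lower and 0 higher in JJN3 (1006 and 1397 of all genes), 1 was lower between the H929 labels (3146 of all genes), 0 were lower and 0 higher between the DMSO groups, and 0 were higher between the THZ1 groups. With the adjusted p alone, 4 were higher in JJN3 (4035 of 13984 genes), 6 lower between the DMSO groups (6015 of 14590), and 4 lower and 4 higher between the THZ1 groups (6019 and 5785 of 14981). The sign of values near 0 turned. In JJN3 with total counts, SMC2 was at -0.10, SMC4 at -0.096 and KPNA4 at -0.018; with no filter, SMC2 was at -0.039 and SMC4 at -0.033; with all 8 libraries, SMC2 was at -0.013 and SMC4 at -0.0067. SMC1A was at 0.011 with DESeq2, 0.011 with its size factors in edgeR and 0.013 with the filter of 1 CPM. PDS5A between the H929 labels was at 0.0016 with total counts. In the interaction, SMC3 was at -0.080 and RAD21 at -0.14 with total counts, -0.021 and -0.076 with no filter, and RAD21 at -0.014 with the filter of 1 CPM; STAG1 did not pass with total counts (adjusted p = 0.0623) or no filter (adjusted p = 0.0533). With each library left out, values in JJN3 ran from -0.084 to 0.084 for SMC2, -0.086 to 0.097 for SMC4 and -0.13 to 0.094 for SMC1A, and in the interaction from -0.040 to 0.13 for SMC3 and -0.055 to 0.034 for RAD21.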
